A study of Mus musculus with 10 samples.

Results

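The genes described here encode the 4 kinases that phosphorylate the alpha subunit of translation initiation factor eIF2, the regulatory subunits of the phosphatases that reverse this, the subunit itself, and the mitochondrial protease Oma1. They were chosen by name, and every probe set of the array whose platform annotation gives exactly 1 gene symbol among the 8 names was taken. This gave 17 of 45101 probe sets, for 7 of the 8 genes, out of 18193 genes with such a probe set. The eighth, Eif2s1 (eIF2 alpha), matched no probe set by this rule and was not analysed here.

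Whole hearts were taken from female mouse embryos 13.5 days after conception (13.5 dpc) for RNA. The 5 control arrays and the 5 Hccs het KO arrays each carried a pool of 4 to 5 hearts of 1 genotype. The controls were littermates labelled only as control, and the knockouts carried a heart conditional heterozygous Hccs knockout. Both groups share age, sex and tissue, and which promoter drives the deletion is not stated in the labels. Hccs makes cytochromes c and c1 functional by attaching haem and is X-linked, so a heterozygous female heart is a mosaic. The design text gives, as a limit of this model, that dividing healthy cardiomyocytes and deficient cells were both present, so each value is a mean over them. In such bulk samples fewer cells of a type and less RNA per cell cannot be told apart.

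As background, phosphorylation of eIF2 alpha slows most protein synthesis while a few mRNAs with upstream reading frames, Atf4 among them, are translated more. Eif2ak1 (HRI) senses haem shortage, Eif2ak2 (PKR) double-stranded RNA, Eif2ak3 (PERK) unfolded proteins in the endoplasmic reticulum, and Eif2ak4 (GCN2) uncharged tRNAs. Oma1, a protease of the inner mitochondrial membrane, cleaves Dele1 when mitochondria are impaired, and the fragment activates HRI. Ppp1r15a (GADD34) and Ppp1r15b (CReP) direct protein phosphatase 1 to eIF2 alpha, the first as a stress-induced feedback gene and the second constitutively. The kinases and Oma1 are switched on as proteins, whereas the arrays measured transcripts only.

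Hccs checked the labels. Its log2 signal was 11.11, 11.31, 11.28, 11.20 and 11.25 in control replicates 1 to 5 and 10.81, 10.73, 10.90, 10.57 and 10.39 in knockout replicates 1 to 5, so the groups did not overlap. The log2 change, here and below knockout minus control, was -0.55 (SE 0.090, limma adjusted p = 0.0225, n = 5 each). Without control replicate 2 or 3, or knockout replicate 2 or 4, the limma adjusted p was 0.0511, 0.0511, 0.0517 and 0.0563. These values are of the brightest Hccs probe set, 1420890_at. The second, 1420889_at, had means of 9.18 and 8.78, and its groups did not overlap. Its log2 change was -0.40 (SE 0.11). In the limma fit over all probe sets its adjusted p was 0.105, which did not pass, and that of 1420890_at was 0.0304.

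Among the members, 1 gene, Eif2ak2, passed an adjusted p of 0.05 over all genes, and it did so through 1 of its 3 probe sets. Of all 18193 genes 2.58% passed, 1.63% upward and 0.945% downward. Eif2ak4 had the largest log2 change, 0.45, in 4 of 5 knockout pools above every control, and Ppp1r15a had the only decrease with an unadjusted p under 0.05 (reached downward by 7.48% of all genes), and neither passed. Eif2ak1, Eif2ak3, Ppp1r15b and Oma1 had log2 changes between -0.068 and 0.10. Before adjustment, 3 of the 7 genes had a limma p under 0.05, against 20.6% of all genes. The groups did not overlap for 1 of 7 genes, against 5.79% of all genes. The median log2 change of the 7 genes was 0.084, beside 0.025 for all genes.

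Promoters of 2 members are shown because their known inducers bear on the comparisons below. They are from RefSeq, build GRCm38.p6, 5′ to 3′ on the strand of the gene, from 250 bases before to 50 after the start site. Promoters matched for all 8 genes but Ppp1r15b, with 2 for Eif2ak4. Capitals mark matches to the core of the interferon response element, a pair of GAAA with any 2 bases between them, searched on both strands, and to the palindrome TGACGTCA, the cyclic AMP response element bound by ATF and CREB proteins. Eif2ak2 lies at chr17:78882523-78882822 and Ppp1r15a at chr7:45526219-45526518, both on the minus strand.
Eif2ak2: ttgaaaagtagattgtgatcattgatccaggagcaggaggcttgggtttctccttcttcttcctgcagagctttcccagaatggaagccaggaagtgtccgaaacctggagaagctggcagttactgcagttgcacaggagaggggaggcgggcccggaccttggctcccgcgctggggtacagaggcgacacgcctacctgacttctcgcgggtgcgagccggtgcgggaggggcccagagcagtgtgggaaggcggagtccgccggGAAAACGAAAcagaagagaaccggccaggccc
Ppp1r15a: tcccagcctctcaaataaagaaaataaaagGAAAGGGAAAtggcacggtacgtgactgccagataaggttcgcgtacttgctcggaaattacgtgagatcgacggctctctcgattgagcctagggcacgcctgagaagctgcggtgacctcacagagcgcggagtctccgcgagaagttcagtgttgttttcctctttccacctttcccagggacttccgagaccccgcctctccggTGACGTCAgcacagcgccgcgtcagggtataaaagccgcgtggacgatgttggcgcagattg
The Eif2ak2 promoter held GAAAACGAAA, starting 18 bases after the start site. The Ppp1r15a promoter held TGACGTCA, starting 12 bases before it, and GAAAGGGAAA farther upstream. The GAAA pair was found in 3.44% of the 32851 promoters of this length and TGACGTCA in 1.79%. The third member promoter with the GAAA pair was that of Eif2s1. The composite element TGATGNAA of ATF4 and C/EBP proteins (3.97% of promoters) was found in 0 of the 8 member promoters. So was the endoplasmic reticulum stress response element, CCAAT and CCACG with 9 bases between them (0.119%), both searched on both strands. These matches describe letters and not binding.

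Eif2ak4, the kinase that responds to uncharged tRNA, had log2 signals of 7.63, 7.91, 7.69, 7.53 and 7.41 in control replicates 1 to 5 (probe set 1421389_a_at). In knockout replicates 1 to 5 they were 7.66, 8.07, 8.15, 8.13 and 8.42. Knockout replicate 1 lay within the controls and the other 4 knockout pools lay above all of them. The mean went from 7.63 ± 0.19 to 8.08 ± 0.27 (SD, n = 5 each), 1.37-fold with a 95% interval of 1.11 to 1.69. The limma adjusted p was 0.112 and the exact two-sided permutation p, over all 252 splits of the arrays, was 0.0238, so the change did not pass over all genes. Without knockout replicate 1 the log2 change was 0.56 with a limma adjusted p of 0.0245. Of the 10 fits with 1 array left out, only this 1 passed, and the largest limma adjusted p was 0.205. Knockout replicate 1 had an Hccs signal of 10.81, and knockout replicate 5, the highest in Eif2ak4, had the lowest Hccs signal, 10.39. Knockout replicates 2 and 4 had Hccs signals of 10.73 and 10.57, with Eif2ak4 signals of 8.07 and 8.13. Knockout replicate 3 had the highest Hccs signal of the knockouts, 10.90, with an Eif2ak4 signal of 8.15. The other 4 knockout pools ran in opposite order in Hccs and Eif2ak4, and replicate 3 departed from it. A relation between these signals was not tested. The second Eif2ak4 probe set, 1443235_at, had means of 2.76 and 2.75, below the median of every array (3.65 to 3.76), where a change of the transcript may not be seen.

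**Figure D1:**
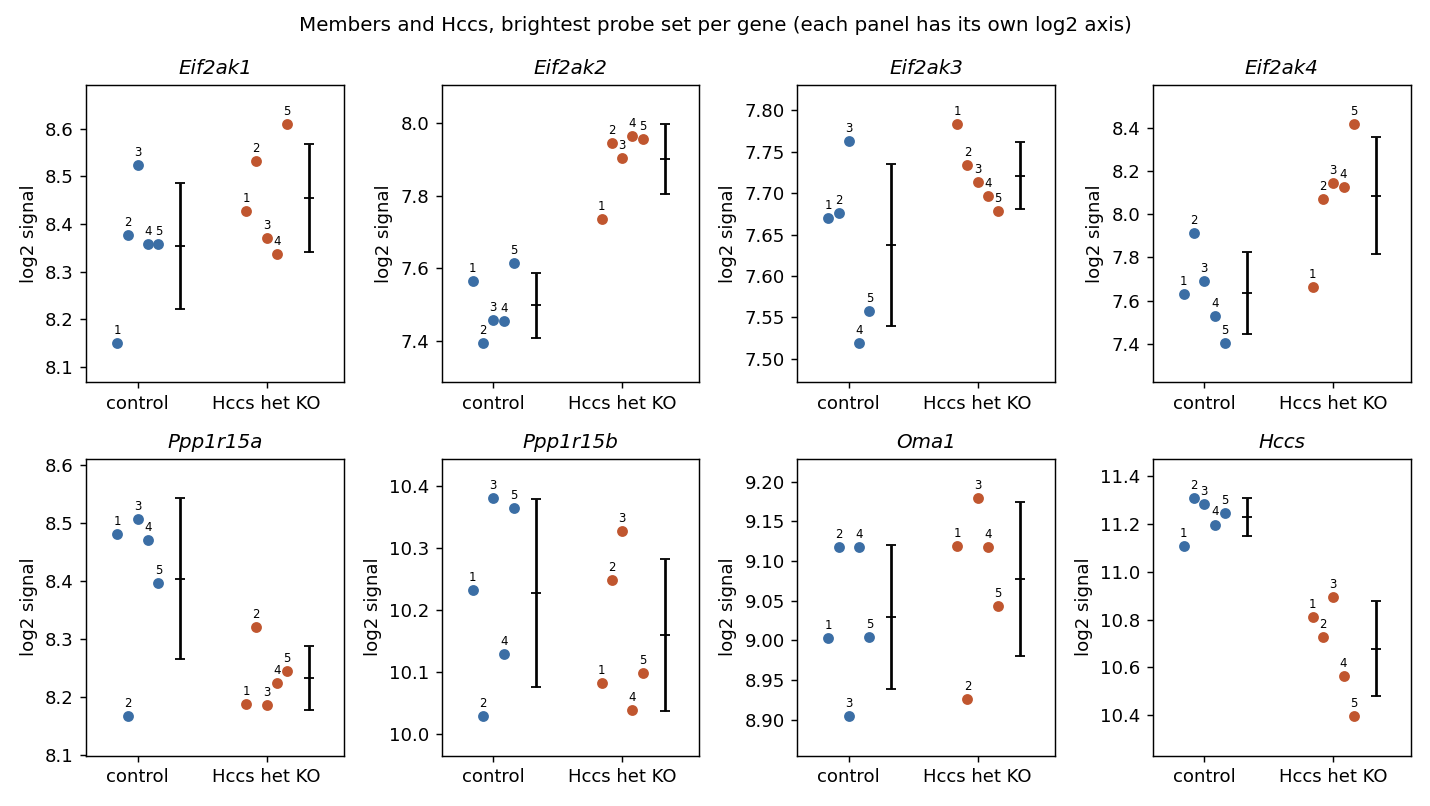
Log2 signal of the brightest probe set of each of the 7 member genes and of Hccs in each array, with the replicate number beside each point and mean ± SD as bars, 5 arrays per genotype. Eif2ak2 and Hccs have groups that do not overlap, Eif2ak4 is higher in 4 of 5 knockout arrays, and the other groups overlap.

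Eif2ak2, the kinase activated by double-stranded RNA and itself induced by interferon, had log2 signals of 7.56, 7.39, 7.46, 7.46 and 7.62 in control replicates 1 to 5 on its brightest probe set, 1440866_at. The knockout signals were 7.73, 7.95, 7.90, 7.97 and 7.96 in replicates 1 to 5. Every knockout pool was above every control pool, and knockout replicate 1 was the lowest of the knockouts. This probe set rose 1.32-fold (95% interval 1.21 to 1.45, log2 change 0.40, SE 0.058, limma adjusted p = 0.0164, exact permutation p = 0.00794, the smallest that 5 against 5 arrays allow). In the fit over genes, leaving out any 1 of the 10 arrays kept the call (limma adjusted p 0.00351 to 0.0450). In the fit over all 45037 probe sets its adjusted p was 0.0213. There it rose to 0.0571 and 0.0541 when control replicate 3 or 4 was left out, and to 0.0544, 0.0523 and 0.0586 when knockout replicate 2, 3 or 4 was, so that the call was lost. With both arrays numbered 3 left out, the adjusted p over genes was 0.0856.

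The other Eif2ak2 probe sets did not show this rise. Probe set 1422006_at had signals of 7.25, 7.27, 7.12, 6.81 and 7.03 in controls and 7.19, 6.56, 7.12, 6.87 and 7.07 in knockouts, a log2 change of -0.14 (SE 0.13). Probe set 1422005_at ranged from 4.12 to 4.99 in controls and from 4.33 to 4.62 in knockouts, a log2 change of -0.0033 (SE 0.14). On both the groups overlapped. The difference between 1440866_at and 1422006_at within an array was 0.40 ± 0.21 in controls and 0.94 ± 0.32 in knockouts (SD, n = 5 each). Its exact permutation p was 0.0238 and 0.143 after Benjamini-Hochberg adjustment over 6 pairs of member probe sets, a comparison chosen after the values were seen. The transcripts that each Eif2ak2 probe set reads are not stated in the annotation used, so the rise is one of a probe set and not of the gene as a whole.

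**Figure D2:**
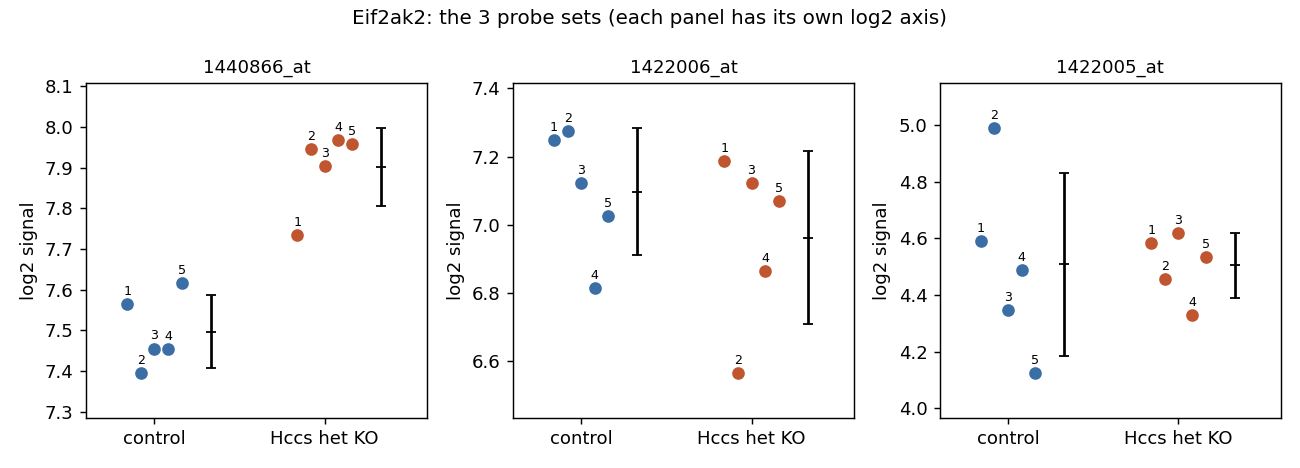
Log2 signal of the 3 probe sets of Eif2ak2 in each array, replicate numbers beside the points, bars mean ± SD of 5 arrays per genotype. The groups are apart on 1440866_at (highest control 7.62, lowest knockout 7.73) and overlap on 1422006_at and 1422005_at.

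Interferon-induced genes gave the setting for Eif2ak2. Of 17 measured genes of this list, 0 rose and 0 fell. An unadjusted limma p under 0.05, reached upward by 13.2% of all genes, was found upward for 1, Mx1, at a signal below every array median. The median log2 change was -0.013. Ifit2, the brightest of them and an interferon-induced antiviral protein, had means of 8.35 and 8.19 (log2 change -0.16, SE 0.18). Of the 17, 6 lay below the array median in every array.

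Eif2ak1, the haem-regulated kinase, had 5 probe sets. The brightest, 1421901_at, gave 8.15, 8.38, 8.52, 8.36 and 8.36 in control replicates 1 to 5 and 8.43, 8.53, 8.37, 8.34 and 8.61 in the knockouts. The groups overlapped, and 2 knockout pools were above all controls. The fold was 1.07 (95% interval 0.956 to 1.20, limma adjusted p = 0.460, exact permutation p = 0.230). The interval is that of this probe set, for the mean over healthy and deficient cells. The next probe set, 1421900_at, had a log2 change of 0.082 and the third, 1436006_at, of -0.023. The remaining probe sets of Eif2ak1 had means of 3.68 and 2.22 over all arrays, near or below the array medians.

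Eif2ak1 is known for its high level in red cell precursors, so the erythroid markers were set beside it. Of 12 measured erythroid genes 1 rose, Rhag, from 3.001 to 3.67, both near or below the array medians, and 0 fell. An unadjusted limma p under 0.05 downward, found for 7.48% of all genes, was reached by 2. These were Alas2, the first enzyme of haem synthesis in red cells (10.01 to 9.37, log2 change -0.64), and Epor, the erythropoietin receptor (log2 change -0.35). The median log2 change of the 12 genes was -0.065. Summed over the list, the log2 level was 16.8 to 17.2 in controls and 16.7 to 17.1 in knockouts. That sum is carried by the embryonic globin Hbb-y (means of 16.50 and 16.41), near the highest signal on the arrays, and says little of the other markers. The mean deviation of the 12 genes ran from -0.23 to 0.35 in controls and from -0.30 to 0.093 in knockouts.

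Eif2ak3, the kinase of the endoplasmic reticulum, had signals of 7.67, 7.68, 7.76, 7.52 and 7.56 in control replicates 1 to 5 on 1449278_at. In the knockouts they were 7.78, 7.73, 7.71, 7.70 and 7.68. The knockout pools lay in the upper part of the control range and 1 was above it. The fold was 1.06 (95% interval 0.983 to 1.14, limma adjusted p = 0.355, exact permutation p = 0.127). The other Eif2ak3 probe sets had means of 2.38 and 1.42, below every array median.

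Of 19 genes of the PERK and endoplasmic reticulum stress branch, 1 rose and 0 fell, and the median log2 change was 0.0093. An unadjusted p under 0.05 was reached by 13.2% of all genes upward and 7.48% downward. In this list it was reached by 4 upward (Herpud1, Hsp90b1, Dnajc3 and Manf) and 1 downward (Atf6). Herpud1, a membrane protein of endoplasmic reticulum quality control that is also in the ATF4 list, rose 1.30-fold. The brightest of those that missed the threshold, Calr (the chaperone calreticulin), changed by -0.20 (log2, SE 0.10).

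Taking the kinases together, 4 of 4 had a positive log2 change on the brightest probe set, against 60.5% of all genes. Eif2ak2 passed, through probe set 1440866_at only, and 3 did not pass. The other Eif2ak2 probe sets had log2 changes of -0.14 and -0.0033, so the values of this paragraph rest in part on 1440866_at. The median log2 change of the 4 kinases was 0.25. The mean deviation of the 4 kinases from their means over the 10 arrays ran from -0.19 to -0.053 in controls and from -0.0082 to 0.25 in knockouts. Knockout replicate 1 was the lowest knockout. How often the mean of 4 genes leaves the groups apart was not tested.

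Ppp1r15a, the stress-induced phosphatase subunit, had signals of 8.48, 8.17, 8.51, 8.47 and 8.40 in control replicates 1 to 5 on its only probe set. In knockout replicates 1 to 5 they were 8.19, 8.32, 8.19, 8.22 and 8.25. The 5 knockouts lay below 4 controls, while control replicate 2 lay below all knockouts. The mean went from 8.40 ± 0.14 to 8.23 ± 0.055 (SD, n = 5 each). The log2 change was -0.17 (SE 0.065), a fold of 0.888 with a 95% interval of 0.803 to 0.982. The limma adjusted p was 0.180 and the exact permutation p 0.0556. Without control replicate 2 the log2 change was -0.23 with a limma adjusted p of 0.0456. Only this 1 of the 10 fits with 1 array left out passed, and the largest limma adjusted p was 0.325.

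Ppp1r15b, the constitutive subunit, ranged from 10.03 to 10.38 in controls and from 10.04 to 10.33 in knockouts on 1426798_a_at. The fold was 0.954 (95% interval 0.840 to 1.08, limma adjusted p = 0.661). The second probe set, 1436366_at, had means of 2.49 and 2.50, below every array median. Of the 5 genes of the phosphatase list, which adds the catalytic subunits of protein phosphatase 1, 0 passed, with a median log2 change of -0.022. An unadjusted p under 0.05, reached by 13.2% of all genes upward and 7.48% downward, was found for 1 gene in each direction. These were Ppp1r15a and the catalytic subunit Ppp1cb, the latter chosen after its value was seen (log2 change 0.31, SE 0.13). Ppp1cc, the brightest, had a log2 change of -0.022 (SE 0.038).

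Oma1 had signals of 9.002, 9.118, 8.904, 9.118 and 9.005 in control replicates 1 to 5 on its only probe set. In the knockouts they were 9.119, 8.926, 9.179, 9.118 and 9.043, and the groups overlapped over most of their range. The fold was 1.03 (95% interval 0.944 to 1.13, limma adjusted p = 0.662, exact permutation p = 0.429). Dele1, the Oma1 substrate that activates HRI, chosen after its value was seen, had means of 8.85 and 8.87 (log2 change 0.014, SE 0.088).

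The Oma1 list holds its substrates, its partners in the inner membrane, the import channel and other mitochondrial proteins, Clpp and Chchd10 among the last. Of its 16 measured genes 0 passed in limma. Positive log2 changes were found for 14, where 60.5% of all genes had one. The list median was 0.10, beside 0.025 for all genes. Of the 14, 5 (Chchd10, Clpp, Tomm40, Pgam5 and Immt) had an unadjusted p under 0.05, reached upward by 13.2% of all genes. Chchd10, a small protein of the intermembrane space and the brightest, had signals of 14.11 to 14.31 in controls and 14.30 to 14.64 in knockouts (log2 change 0.30, SE 0.072, limma adjusted p = 0.0581).

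**Figure D3:**
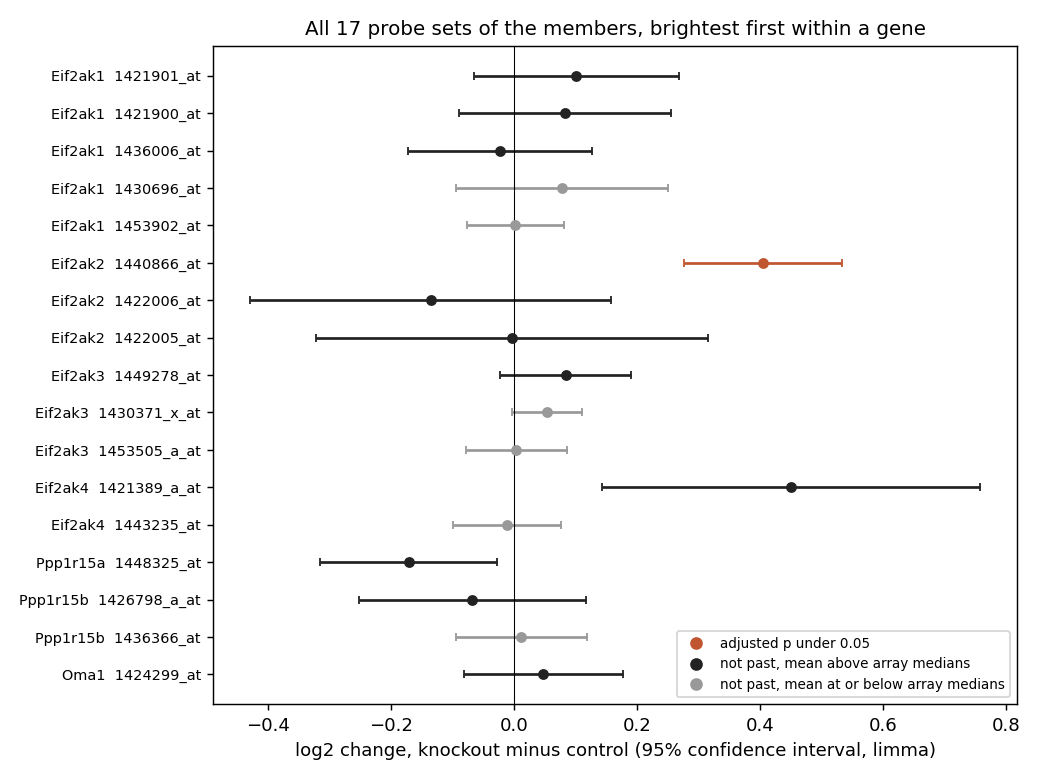
Log2 change, knockout minus control, of each of the 17 member probe sets with the 95% interval of the limma fit over all 45037 probe sets that are not controls, 5 arrays per genotype. Only 1440866_at of Eif2ak2 passed; the intervals of 1421389_a_at of Eif2ak4 and of the Ppp1r15a probe set leave out 0 without passing after adjustment.

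Over all probe sets the same picture held. Of the 17 member probe sets 1 passed an adjusted p of 0.05, where 1.14% of all 45037 did, and 3 had an unadjusted p under 0.05, where 20.0% did. The groups did not overlap on 1, where 5.26% of all probe sets had such groups. A positive log2 change was seen for 11 and a negative one for 6. The signal lay above the array median on every array for 11 probe sets, below it on every array for 5, and 1 lay on either side.

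Neither the measured genes of eIF2 and its exchange factor nor the measured regulators of the kinases gave a gene past the threshold. Eif2s1, the subunit that the kinases phosphorylate, and the listed regulator Hsp90ab1 were not measured. Of 7 measured genes of eIF2 and of its exchange factor eIF2B, 0 passed, 2 had positive log2 changes, and the median was -0.039. An unadjusted p under 0.05 was reached by 13.2% of all genes upward and 7.48% downward. Here it was reached by 2 upward (Eif2s2 and Eif2b3) and 1 downward (Eif2b5). Eif2s2, eIF2 beta and the brightest, had a log2 change of 0.13 (SE 0.048). Of 11 kinase regulators, among them chaperones of HRI and the GCN2 partner Gcn1, 0 passed, 3 had an unadjusted p under 0.05 upward (Hsp90aa1, Hspa8 and Dnajc3) and 2 downward (Fkbp8 and Cdc37), and the median was 0.087. Members of lists given here in brackets, and Mx1, Rhag, Alas2, Epor and Tcf21, were chosen after their values were seen. Hspa8, a chaperone and the brightest of them, changed by 0.20 (log2, SE 0.056, limma adjusted p = 0.0967).

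Transcripts known to follow eIF2 phosphorylation, which the arrays did not measure, included genes that rose. Of 24 measured genes that are read through upstream frames or induced by ATF4, 14 rose and 0 fell. The shares of all genes were 1.63% and 0.945%. The list had a median log2 change of 0.58, beside 0.025 for all genes. This pattern was known when the list was written and is given only to set the members beside it. Asns, asparagine synthetase, had signals between 9.81 and 10.002 in controls and between 11.58 and 12.10 in knockouts, and Phgdh, Mthfd2 and Shmt2, enzymes of serine and one-carbon metabolism, rose 1.83-fold, 2.82-fold and 1.38-fold. The brightest of those that missed the threshold, the lipoprotein receptor Vldlr, changed by 0.23 (log2, SE 0.12). Atf4 and Ddit3, which encode transcription factors that act on Ppp1r15a, rose 1.47-fold and 1.84-fold, both chosen after their values were seen. In knockout replicates 1 to 5 the mean deviation of this list was 0.39, 0.50, 0.20, 0.45 and 0.26. Replicate 1, the lowest in Eif2ak2 and Eif2ak4, was not the lowest here.

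**Figure D4:**
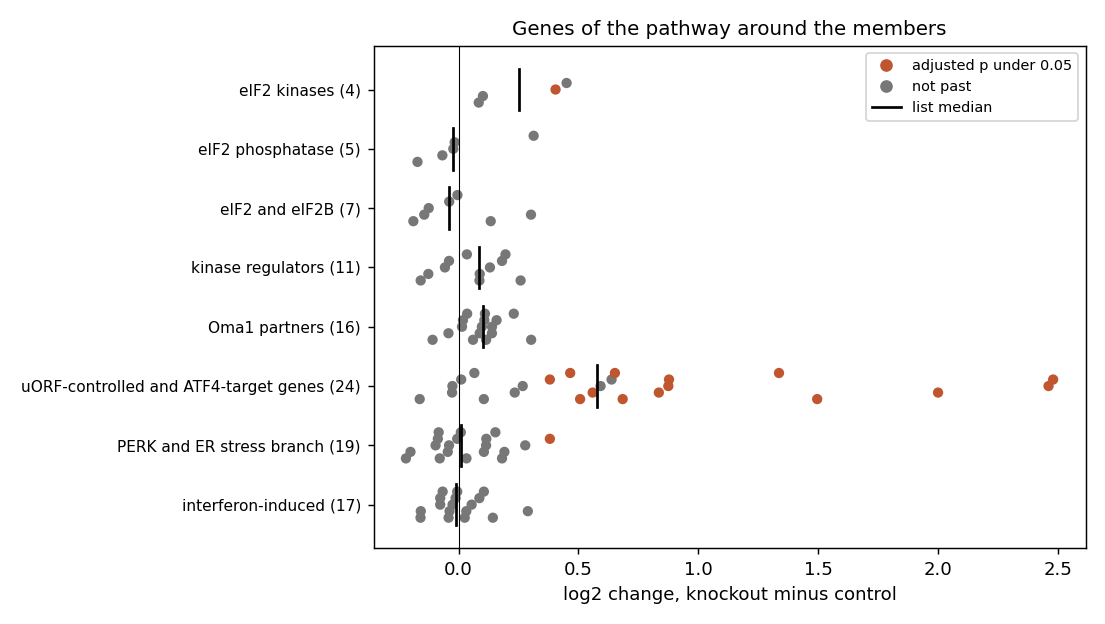
Log2 change, knockout minus control, of each measured gene (points, brightest probe set) in the 8 lists of the pathway, with the number of measured genes in brackets and a bar at the list median. Genes past an adjusted p of 0.05 number 14 in the ATF4 list, 1 among the kinases, 1 in the endoplasmic reticulum list (Herpud1, also in the ATF4 list) and 0 in the other 5.

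Genes whose pattern over the 10 arrays was most like that of Eif2ak2 and Eif2ak4 were taken by Pearson correlation after subtraction of each genotype's mean, over all 18193 genes. For Eif2ak2 they were Gm19723, Crygd and Tlx3 (r = 0.95 each), and these had mean signals of 2.05 to 2.66, below every array median. For Eif2ak4 they were Nmt2, Ube2h and Rsrp1 (r = 0.94 each), with log2 changes of -0.055, -0.061 and 0.41. These genes were picked as the highest over 18193 genes and only 10 arrays. How high such a maximum runs among unrelated genes was not tested, so r is no evidence of shared regulation. The points also share arrays and normalization.

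Other array and tissue measures also differed between the genotypes. The 5′ control probe set for 18S ribosomal RNA was at 10.05 ± 1.25 in controls and 8.17 ± 0.35 in knockouts (SD, n = 5 each, exact permutation p = 0.0238). The 18S middle and 3′ probe sets had means of 8.95 against 7.99 and 9.16 against 8.38, with exact permutation p of 0.0794 and 0.222. Control replicate 3 had 8.06 on the 5′ probe set, a value among the knockouts. The Gapdh and actin controls had lower mean signals in the knockouts, for example 15.76 against 15.61 on the Gapdh 3′ and 15.85 against 15.62 on the actin 3′ probe set. The exact permutation p was 0.00794 for the 3 Gapdh probe sets and the actin 3′ probe set, and 0.0159 for the actin 5′ and middle ones. The 3′ minus 5′ difference of the Gapdh control was -0.18 ± 0.031 and -0.21 ± 0.021, and that of actin 0.86 ± 0.067 and 0.82 ± 0.039 (exact permutation p = 0.0952 and 0.222). Cardiomyocyte markers were detected at high signals, and of 15 measured 6 fell and 0 rose, with a median log2 change of -0.23. All 15 had a negative log2 change, where 60.5% of all genes had a positive one. Of the 15, 13 had an unadjusted p under 0.05 downward, where 7.48% of all genes did. The groups did not overlap for 8, where 5.79% of all genes had such groups. The summed log2 level of the 15 markers was 19.05 to 19.12 in controls and 18.78 to 18.94 in knockouts. Of the endothelial, fibroblast and epicardial, smooth muscle and macrophage lists, with 9, 12, 6 and 10 measured genes, 0, 1 (Tcf21), 0 and 0 rose and 0 fell. Before adjustment 0, 1, 1 and 1 of them had a limma p under 0.05 upward, where 13.2% of all genes did. Downward it was 4, 0, 2 and 0, where 7.48% of all genes did. The list medians were -0.19, 0.12, 0.15 and 0.063. The summed log2 levels of these lists overlapped between genotypes, at 13.22 to 13.40 against 13.20 to 13.40, 16.03 to 16.25 against 16.05 to 16.27, 15.42 to 15.50 against 15.24 to 15.49 and 11.11 to 11.62 against 11.42 to 11.92. The part of cell makeup and of the 18S signal in the changes of Eif2ak2, Eif2ak4 and Ppp1r15a was not tested.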

How the data were processed

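The deposited table holds log2 probe set signals from 0.602 to 16.6 of 10 Affymetrix arrays, and per the submitters' processing notes the authors used RMA and Partek, with no versions. That the scale is log2 follows from the values, and no detection calls were made. RMA brings arrays to a common distribution, so a change of total RNA cannot be seen. Per the labels' protocols, biotinylated cRNA was made from 5 ug of RNA. The labels give no batch, and precision is limited by the 10 arrays.

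Genotypes came from the sample titles. The 64 control probe sets were left out. The probe set with 1 symbol and the highest mean stood for a gene, and symbols came from the platform annotation. Knockout minus control was tested by limma 3.58.1 under R 4.3.3 (lmFit, eBayes, genotype only), adjusted by Benjamini-Hochberg over 18193 genes or 45037 probe sets, threshold 0.05, without a filter on low values. Intervals are the fit's 95% intervals, unadjusted, and differences of log2 values are given as folds. The scripts were tested on simulated data. Single values were compared by exact two-sided permutation tests. Lists are described by counts and medians. Named are all members, the 4 genes of lowest p that passed in each pathway list (or fewer), the brightest that did not, and the 3 genes most like each of 2 members, with others marked. The members, the 8 pathway lists and the 6 cell type lists were chosen with earlier results of these data known. Alternatives were a replicate block, quantile normalization, median centring, 2 filters on low values, other probe set rules, eBayes with trend and robust, array weights, other thresholds and arrays left out. Plots used matplotlib 3.10.9 in Python 3.11.15.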

Additional observations from a re-analysis of the deposited data

Results flagged for a closer look

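In 62 groups of 5 arrays, made of each named probe set or gene in each genotype, 7 held an array set apart from the other 4 by Dixon's criterion at the 95% level (gap over range above 0.71), where chance gives about 1 in 20. Knockout replicate 1 was the lowest on Eif2ak2 probe set 1440866_at, 7.73 against 7.90 to 7.97 in the other knockouts, and still above every control. Knockout replicate 5 was the highest on Eif2ak1 probe set 1421900_at, 7.68 against 7.37 to 7.40. Control replicate 4 was the lowest in Ifit2, 8.02 against 8.40 to 8.46. The others were on dim probe sets. Control replicate 5 had 2.33 on Eif2ak1 probe set 1453902_at, against 2.17 to 2.22. On Eif2ak3 probe set 1453505_a_at control replicate 2 had 1.34 (others 1.43 to 1.45) and knockout replicate 5 had 1.53 (others 1.38 to 1.40). Knockout replicate 2 had 2.67 on Ppp1r15b probe set 1436366_at, against 2.42 to 2.49.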

How the results depend on the processing

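The number of members past the threshold was 1 over genes and 1 over probe sets. Over genes it was 0 with probe sets of a gene averaged (Eif2ak2 log2 change 0.089), 0 without the arrays numbered 3 of both genotypes, 0 at a threshold of 0.01 and 2 with array weights (Eif2ak4 as well), and 1 to 2 with 1 array left out. Over probe sets it was 0 without the arrays numbered 3, 2 with array weights and 0 to 2 with 1 array left out. Hccs had a log2 change of -0.59 without the arrays numbered 3 (limma adjusted p = 0.0714) and of -0.60 to -0.48 with 1 array left out. Oma1 turned to -0.0091 without the arrays numbered 3, far inside its error, and the cause was not tested. The other 6 member genes kept their direction under all 20 alternatives run for each. With the replicate number as a block 0 members passed over genes and 0 over probe sets (Eif2ak2 limma adjusted p = 0.0763), and Hccs kept its log2 change of -0.55 with an adjusted p of 0.0735. Deviations of same-numbered arrays correlated between -0.091 and 0.077, and 2 of 10 arrays correlated best with their own number, so the numbers were not taken as pairs. Of all genes 469 passed, 30 without the arrays numbered 3, 36 with the block, 759 with a filter at the median, 945 with array weights, and 105 to 1042 with 1 array left out, the highest without knockout replicate 1. Of the 17 member probe sets, 5 gave signals below every array median, where changes may be compressed.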
